A study of Homo sapiens with 4 samples.

Results

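Lysosomes are acidic organelles in which cathepsins, glycosidases, sulfatases and lipid hydrolases degrade what a cell takes up or recycles. A proton pump, the V-ATPase, acidifies their interior, membrane proteins such as LAMP1 and LAMP2 line their wall, and the transcription factor TFEB drives many of their genes by binding a short element in the promoters. In monocytes and macrophages they receive the phagosomes that hold engulfed bacteria.

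The genes described here are 45 lysosomal hydrolases, membrane proteins, proton pump subunits and TFEB, chosen as a list of names. Each gene was read on the probe set with the highest mean signal over the arrays, among probe sets annotated to 1 gene. Of the 45 genes, 42 had such a probe set, out of 19775 named genes on the arrays. GLB1 (beta-galactosidase) and CD68 (macrosialin) were listed only together with another gene, and ACP5 (the tartrate-resistant acid phosphatase) had no listed probe set, so no value is given for these 3 genes.

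RNA levels come from 4 Affymetrix arrays (Human Genome U133 Plus 2.0), 1 per condition, and no condition was replicated. The cells were sublines of THP-1, a human monoblastoid leukemia line, expressing either Siglec-14 (Siglec-14/THP-1) or Siglec-5 (Siglec-5/THP-1). Siglec-14 and Siglec-5 are sialic acid-binding receptors of myeloid cells, the first coupled to an activating adaptor and the second inhibitory. Each subline was kept for 6 h in serum-free medium, without bacteria (NTHi[-]) or with heat-killed nontypeable Haemophilus influenzae strain 2019 at 100 bacteria per cell (NTHi[+]). The sublines stand for monocytes with and without Siglec-14, but no parental THP-1 cells were on the arrays, and the sources used here do not say whether each subline was 1 clone. Any difference between the sublines therefore cannot be told apart from differences that arose when they were made.

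Values are linear signal intensities in arbitrary units. The median of all signals, 16.02, was taken as the floor, and the 75th percentile was 105. Summed signals lay between 12735500 and 14047100 per array. The SIGLEC5 probe set gave 21.3 in Siglec-14,NTHi[-], 19.5 in Siglec-14,NTHi[+], 4.13 in Siglec-5,NTHi[-] and 21.6 in Siglec-5,NTHi[+], near or below the floor. It was not higher on the arrays labelled Siglec-5, and whether it reads the introduced coding sequence is not given, so it left the labels unchecked. No probe set was listed for SIGLEC14 alone. Siglec-14 and Siglec-5 below name the arrays as they are labelled. Of 11 monocytic markers measured, 8 reached the floor on each of the 4 arrays, with lysozyme (LYZ) at 3036 to 3430, while CD14, a monocyte surface marker, was at most 11.4.

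TFEB binds an E-box-containing element whose core is CACGTG. The RefSeq promoter table (GRCh38.p14, 250 bases before to 50 after each gene's start) held windows for 32 of the 45 genes, and CACGTG stood in 10 of them (31.2%): CTSD, CTSA, GAA, ARSB, ACP5, LAMP1, CD63, MCOLN1, CLN3 and ATP6V0D1. Over all 27305 genes with a window, 8.77% held it, and over the 15384 of them on the arrays, 10.9%. A gene counted when any of its windows held it, and CD63 had 8 windows and ACP5 4. The longer palindrome TCACGTGA, which contains CACGTG and reads the same on both strands, was in 6 of the 32 genes (18.8%). It was in 1.18% of all genes and in 1.66% of those on the arrays. These 6 sites are shown because the palindrome is the inner part of the element that TFEB and its relatives read. Each line gives 36 bases of the coding strand with the palindrome in capitals.
LAMP1, chr13:113297196-113297231, plus strand: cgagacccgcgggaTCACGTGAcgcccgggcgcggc
CLN3, chr16:28492055-28492090, minus strand: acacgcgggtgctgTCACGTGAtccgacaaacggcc
ATP6V0D1, chr16:67481196-67481231, minus strand: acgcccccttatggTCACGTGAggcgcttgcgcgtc
GAA, chr17:80101490-80101525, plus strand: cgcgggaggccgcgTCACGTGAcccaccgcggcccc
MCOLN1, chr19:7522568-7522603, plus strand: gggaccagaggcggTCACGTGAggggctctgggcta
CTSA, chr20:45891295-45891330, plus strand: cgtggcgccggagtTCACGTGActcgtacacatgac
The windows of LAMP1, GAA and MCOLN1 each held 2 copies, of which the first is shown. The copies shown began between 2 bases (CLN3) and 77 bases (GAA) before the annotated start. A match of letters is a description and not a bound site. The windows of TFEB, CTSH and CTSL, the 3 genes with the widest difference between the sublines below, did not hold CACGTG.

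Most of the lysosomal genes had signals above the floor in all 4 conditions. Of the 42 genes measured, 40 were at or above the floor on every array, a share not given for all genes. A mean signal at or above the 75th percentile was reached by 34 of the 42, beside 7861 of the 19775 named genes. The floor is no detection call, since PAX5 (a B cell marker) and EPCAM (an epithelial marker) were also above it on every array. LGMN (legumain, an asparaginyl endopeptidase) was below the floor in Siglec-14,NTHi[-] at 2.75 and in Siglec-5,NTHi[+] at 3.04, and gave 24.6 and 25.6 on the other arrays, so no direction is read from it. IDUA (alpha-L-iduronidase) gave 28.8, 30.7 and 23.1, and 11.1 in Siglec-5,NTHi[+].

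**Figure D1:**
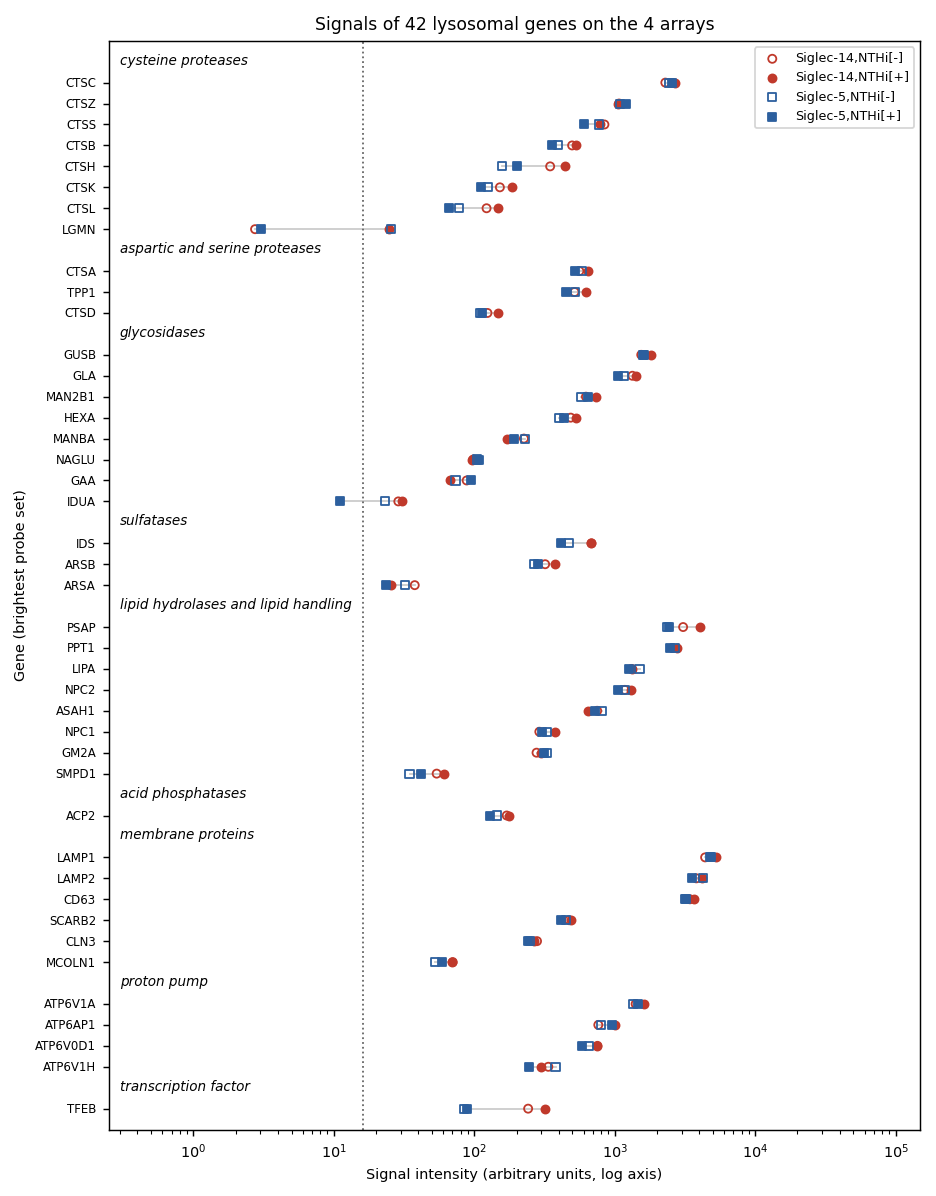
Signal intensity (arbitrary units, log axis) of the 42 lysosomal genes on the 4 arrays, by role, with 1 point per array and a grey line over the range. The dotted line is the floor of 16.02, and the red Siglec-14 points of TFEB, CTSH and CTSL lie to the right of the blue Siglec-5 points.

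TFEB showed the widest difference between the sublines among the 40 lysosomal genes at the floor on every array. Its signal was 242 in Siglec-14,NTHi[-], 319 in Siglec-14,NTHi[+], 84.1 in Siglec-5,NTHi[-] and 88.3 in Siglec-5,NTHi[+]. The values of the 2 sublines did not overlap, and the Siglec-14 signal was 2.88-fold higher without NTHi and 3.62-fold higher with NTHi. A second, dimmer TFEB probe set ran the same way, with 30.4 and 83.6 in Siglec-14/THP-1 and 7.29 and 9.09, below the floor, in Siglec-5/THP-1.

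Among the cysteine proteases, CTSH (cathepsin H, an aminopeptidase) and CTSL (cathepsin L, an endopeptidase) were higher in Siglec-14/THP-1. The CTSH signal was 347 and 446 in Siglec-14/THP-1, without and with NTHi, against 158 and 202 in Siglec-5/THP-1. This was 2.19-fold without and 2.21-fold with NTHi. The CTSL signal was 122 and 148 against 78.2 and 65.6, or 1.57-fold and 2.26-fold. For both genes, the lower Siglec-14 value was above the higher Siglec-5 value. CTSH and CTSL each had 1 probe set.

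CTSH, CTSL and TFEB were the lysosomal genes at least 1.5-fold higher in Siglec-14/THP-1 in both conditions. Their 3 of 42 (7.14%) stood beside 6.26% of the 12448 genes whose higher signal reached the floor in both pairs of arrays. Among genes with a mean signal at or above the 75th percentile the count was 2 of 34, CTSH and TFEB, beside 3.5% of 7861 genes. A share near that of all genes is no result about the list. At the same fold, 0 lysosomal genes were lower in Siglec-14/THP-1 in both conditions, beside 2.96% of all genes and 2.24% of the brighter ones.

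A limma fit over all probe sets, with subline and NTHi as additive terms and the variance taken from an intensity trend, gave 6 of 42 lysosomal genes as higher in Siglec-14/THP-1 (14.3%), beside 6.24% of 13933 genes. The log2 difference was 1.69 ± 0.18 (SE) for TFEB (limma, Benjamini-Hochberg adjusted p = 6.5e-19), 1.14 ± 0.16 for CTSH (adjusted p = 2.7e-10) and 0.91 ± 0.20 for CTSL (adjusted p = 0.00020). It was 0.62 ± 0.15 for IDS, iduronate-2-sulfatase of glycosaminoglycan breakdown (limma, adjusted p = 0.0014). It was 0.56 ± 0.16 for PSAP, the precursor of the saposins that activate sphingolipid hydrolases (limma, adjusted p = 0.0095). CTSB (cathepsin B) was at 0.44 ± 0.15, with an adjusted p of 0.048 by limma. The fit called 0 lysosomal genes lower in Siglec-14/THP-1, beside 4.95% of all genes, and at an unadjusted p under 0.05 it gave 11 higher and 0 lower, beside 10.9% and 11.4% of all genes. These p-values compare 4 arrays without replicate cultures, and with no intensity trend in the variance the same fit called 0 genes of any kind.

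The 3 genes called in the fit alone had smaller differences, and their probe sets ran the same way. The IDS signal was 683 and 675 in Siglec-14/THP-1, without and with NTHi, against 472 and 414 in Siglec-5/THP-1. A second IDS probe set showed a wider difference, with 408 and 431 against 178 and 154, and all 4 IDS probe sets at the floor on every array were higher in Siglec-14/THP-1 in both conditions. The brightest IDS probe set is of a type (_x_at) that may share probes with other transcripts. The PSAP signal was 3068 and 4042 against 2351 and 2425, and its second probe set gave 1149 and 1432 against 725 and 806. The CTSB signal was 497 and 531 against 396 and 360, and all 5 of its probe sets at the floor on every array were higher in Siglec-14/THP-1 in both conditions, by log2 differences of 0.04 to 0.71.

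**Figure D2:**
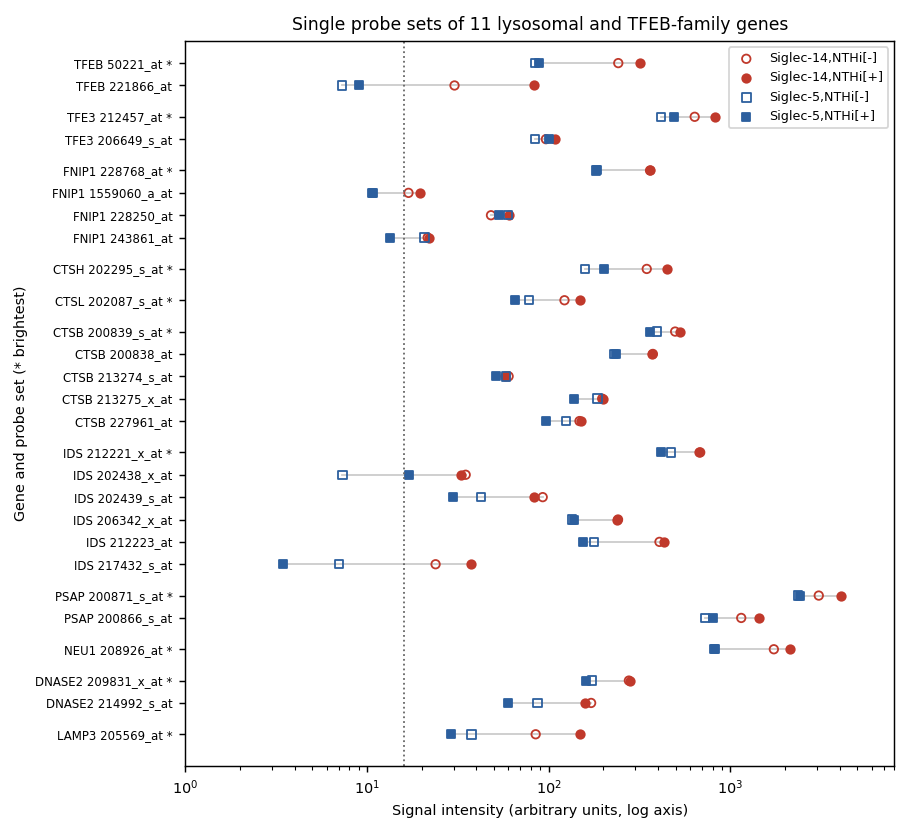
Signal intensity (arbitrary units, log axis) of 27 probe sets of 11 lysosomal and TFEB-family genes on the 4 arrays, with an asterisk at the brightest probe set of each gene and the floor of 16.02 dotted. For TFEB, CTSH, CTSL, IDS, PSAP, NEU1, DNASE2 and LAMP3 the Siglec-14 points lie to the right of the Siglec-5 points on each probe set shown, while TFE3, FNIP1 and CTSB each have a probe set on which the sublines overlap.

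The other proteases at the floor on every array passed neither the fold rule nor the fit. CTSC (cathepsin C, a dipeptidyl peptidase) gave 2292 and 2702 in Siglec-14/THP-1, without and with NTHi, against 2453 and 2567 in Siglec-5/THP-1, which overlap. CTSZ (cathepsin Z) gave 1073 and 1050 against 1083 and 1211, with log2 ratios of -0.01 and -0.21. CTSK (cathepsin K) gave 152 and 187 against 125 and 111, with a limma difference of 0.52 and an adjusted p of 0.053. The serine carboxypeptidase CTSA (cathepsin A) gave 560 and 650 against 582 and 518. CTSD (cathepsin D, an aspartic protease) had log2 ratios of 0.16 without and 0.39 with NTHi, and TPP1 (tripeptidyl peptidase) of -0.0042 and 0.47.

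Among the glycosidases, no member was past 1.5-fold in both conditions. GUSB (beta-glucuronidase) gave 1545 and 1812 in Siglec-14/THP-1 against 1609 and 1588 in Siglec-5/THP-1. NAGLU (alpha-N-acetylglucosaminidase) gave 98.3 and 96.7 against 104 and 109, among the 5 lowest mean ratios of the list. GLA (alpha-galactosidase) had log2 ratios of 0.19 and 0.44, and HEXA (the alpha subunit of beta-hexosaminidase) of 0.28 and 0.30. For 7 glycosidases at the floor on all arrays the ratios ran from -0.49 (GAA, with NTHi) to 0.44 (GLA, with NTHi).

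All 3 sulfatases had ratios above 0 in both conditions, and IDS was called in the fit. Beside IDS, ARSB (arylsulfatase B) had log2 ratios of 0.26 and 0.39, and ARSA (arylsulfatase A), a dim gene at 23.4 to 37.7, of 0.23 and 0.12. Of the lipid genes, ASAH1 (acid ceramidase) gave 750 and 644 in Siglec-14/THP-1 against 815 and 720 in Siglec-5/THP-1. GM2A, the activator of GM2 ganglioside breakdown, gave 278 and 296 against 329 and 315. The GM2A values of the sublines did not overlap, at log2 ratios of -0.25 and -0.09 and a limma adjusted p of 0.66, but of its 5 probe sets at the floor on every array, 2 were higher in Siglec-14/THP-1 without NTHi and 4 with NTHi. SMPD1 (acid sphingomyelinase) had log2 ratios of 0.64 and 0.53 at signals of 34.6 to 60.5. LIPA (acid lipase), NPC2 (a cholesterol carrier) and PPT1 (a thioesterase) had ratios between -0.19 and 0.31. The acid phosphatase ACP2 gave 170 and 176 against 146 and 129.

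The membrane proteins and proton pump subunits were near equality. LAMP1 gave 4400 and 5244 in Siglec-14/THP-1, without and with NTHi, against 4732 and 4829 in Siglec-5/THP-1. Over LAMP1, LAMP2, CD63, SCARB2 (the receptor that sorts glucocerebrosidase), MCOLN1 (a calcium channel) and CLN3, the log2 ratio lay between -0.16 and 0.42 without NTHi and between 0.12 and 0.24 with NTHi. ATP6V1A, the catalytic subunit of the V-ATPase, gave 1409 and 1609 against 1359 and 1462. For ATP6V1A, ATP6AP1, ATP6V0D1 and ATP6V1H the ratio lay between -0.17 and 0.21 without NTHi and between 0.06 and 0.36 with NTHi. None of these 10 genes was called by fold or by limma.

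**Figure D3:**
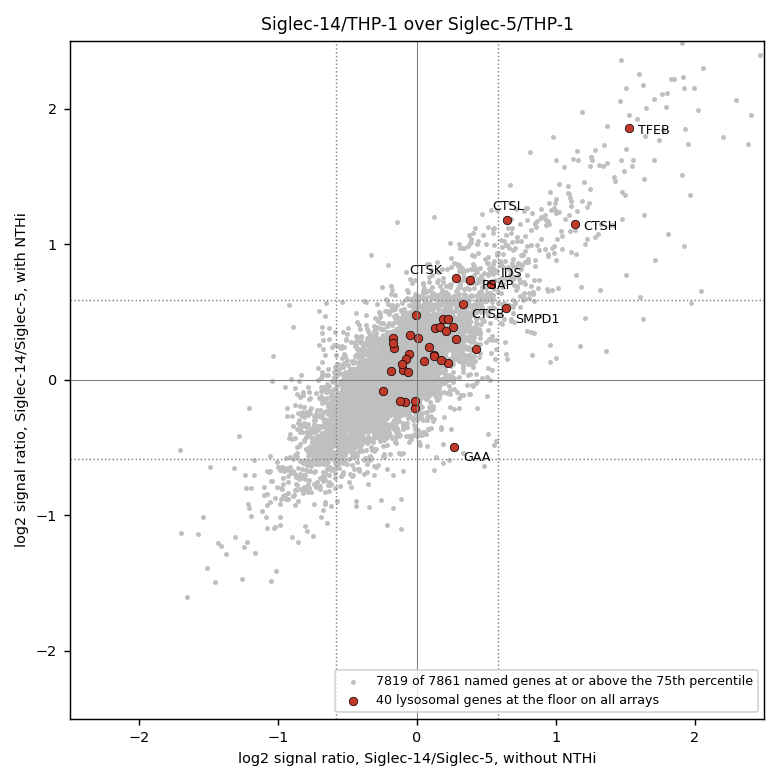
Log2 signal ratio of Siglec-14/THP-1 over Siglec-5/THP-1 without NTHi (x) and with NTHi (y), for the 40 lysosomal genes at the floor on all arrays (red) and for 7819 of 7861 brighter genes that fall within the axes (grey). Dotted lines mark 1.5-fold, past which TFEB, CTSH and CTSL lie in both conditions. GAA goes from a positive ratio without NTHi to a negative ratio with NTHi, while others, such as NPC1 and LAMP1, change sign the other way.

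As a list, the lysosomal genes had slightly higher ratios of Siglec-14 over Siglec-5 than the median gene. Their median log2 ratio was 0.12 without NTHi, where that of all genes reaching the floor was -0.13, and 0.28 with NTHi, where that of all genes was 0.06. The list thus lay 0.24 and 0.22 above the median of all genes. In all, 24 of the 40 genes at the floor on every array were above 0 without NTHi, beside 36.2% of all genes, and 34 of 40 with NTHi, beside 57.6%. Those shares are over genes that reach the floor on either array of the pair. On that footing 59.5% and 85.7% of the 42 lysosomal genes were above 0. Set against the median of all genes, 29 of the 40 were above it in both conditions and 1, GM2A, was below it in both. The share of all genes on the same side in both conditions is not given, so this count describes the list alone. Among the roles with more than 1 gene, and over genes at the floor on every array, the median ratio with NTHi ran from 0.18 for the glycosidases to 0.56 for the cysteine proteases. Under 4 other scalings of the arrays the list's median lay between 0.22 and 0.26 above that of all genes.

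The ratios were also set beside the promoter palindrome, as a description. The 6 genes with TCACGTGA, all of them measured, had a median log2 ratio of 0.19 without NTHi and 0.18 with NTHi. The 23 measured genes with a window but no palindrome had medians of 0.12 and 0.31. For CACGTG, the medians were 0.17 and 0.23 in 9 genes with it and 0.05 and 0.31 in 20 genes without it.

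Genes of the lysosomal pathway outside the list were read in the same way from a second list of 78 genes, of which 68 had a probe set of their own. By fold, 5 of the 68 were higher in Siglec-14/THP-1 in both conditions and 0 lower, beside 6.26% higher and 2.96% lower of all genes. The share higher by fold is near that of all genes and is no result about the second list. By limma 8 were higher and 1 lower, beside 6.24% higher and 4.95% lower of all genes. NEU1 (the lysosomal sialidase) gave 1737 and 2130 in Siglec-14/THP-1, without and with NTHi, against 814 and 824 in Siglec-5/THP-1. DNASE2, an acid nuclease, gave 277 and 281 against 174 and 160. LAMP3, a membrane protein of dendritic cell lysosomes, gave 84.9 and 150 against 37.6 and 29.0. For each of these genes the sublines did not overlap, a trait whose share over all genes is not given.

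The others of the 5 were a relative and a regulator of TFEB. TFE3, a transcription factor of the TFEB family, gave 637 and 820 in Siglec-14/THP-1 against 416 and 487 in Siglec-5/THP-1, but its second probe set gave 96.7 and 109 against 84.0 and 100. FNIP1, a partner of folliculin in nutrient sensing, gave 362 and 363 against 183 and 184, while another of its probe sets gave 48.2 and 60.4 against 59.7 and 53.5. MITF, of the same family as TFEB, was dim at 19.3 to 30.5. In limma, ATP6V0A1, CTNS (the cystine transporter) and SLC11A1 (a metal ion transporter of phagosomes) were also higher. For SLC11A1 this rests on the condition without NTHi, where the signal was 92.1 against 28.8, since with NTHi it was 50.8 against 54.0.

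LYST, a regulator of lysosome size, was lower in Siglec-14/THP-1 by limma, with 849 and 1166 against 1338 and 1368 (log2 difference -0.44 ± 0.15, adjusted p = 0.044). LYST belongs to the group for sorting and biogenesis, which held the receptors and adaptors that carry hydrolases to lysosomes. In that group, 0 of 13 genes had a ratio above 0 without NTHi and 4 of 13 (IGF2R, GGA3, AP1B1 and HPS1) with NTHi. Of all genes reaching the floor in the pair, 36.2% and 57.6% were above 0. The group's median was -0.24 and -0.03, beside -0.13 and 0.06 over all genes. Beside the same medians of all genes, the hydrolases outside the list had 0.17 and 0.15, and the membrane proteins outside it 0.20 and 0.35.

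**Figure D4:**
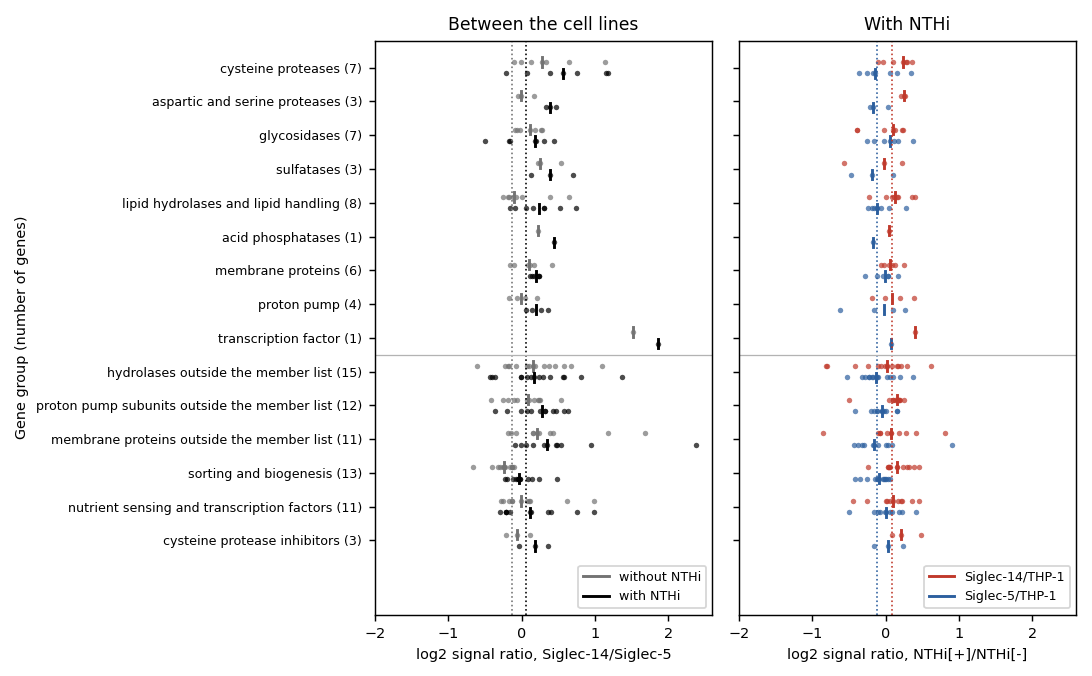
Log2 signal ratios of single genes (points) and their median (bars) by group, for genes at the floor on all arrays, with the number of genes in parentheses. The left panel plots Siglec-14 over Siglec-5 and the right panel NTHi[+] over NTHi[-], and groups of the second list stand under the line. Dotted lines give the median of all genes. Without NTHi, sorting and biogenesis lies to the left of 0, as does the median of all genes.

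Some markers of macrophage differentiation and of monocytic cells also had higher signals in Siglec-14/THP-1. Of 10 macrophage markers, 3 were at the floor on all arrays (APOE, GPNMB and CHI3L1), and the summed signal of the 10 was 7638 and 9285 in Siglec-14/THP-1 and 5414 and 6009 in Siglec-5/THP-1, most of it from CHI3L1 (a secreted lectin). APOE (apolipoprotein E) gave 390 and 462 against 210 and 193. The macrophage receptors MRC1 and MSR1 were below the floor on all 4 arrays. By fold, 2 of the 10 (APOE and FABP4) were higher in Siglec-14/THP-1, beside 6.26% of all genes. In the other direction, 1 (MARCO) was lower, beside 2.96% of all genes. MARCO gave 1.47 and 7.97, below the floor, against 16.7 and 19.2. FABP4 gave 17.5 and 18.4 against 0.667 and 1.40, below the floor. The summed signal of the 11 monocytic markers was 7127 and 7701 against 6771 and 6602, and of these 2, ITGAM and TYROBP, were called higher in Siglec-14/THP-1 by limma, beside 6.24% of all genes. The LYZ log2 ratios were -0.11 and -0.07. Of 4 fibroblast markers, COL1A1 gave 266 and 257 against 141 and 132, while COL1A2 and COL3A1 were below the floor on all 4 arrays. The remaining fibroblast marker, DCN, was near the floor and ran the other way, with 15.5 and 13.5 against 21.3 and 16.6. Of 4 hepatocyte markers, SERPINA1 gave 84.6 and 177 against 2.95 and 3.99, below the floor, and ALB was below the floor on all 4 arrays. The remaining hepatocyte markers were near or below the floor. TF gave 16.4 and 11.3 against 8.39 and 10.8, and APOA1 had log2 ratios of 1.68 without and -0.18 with NTHi. In the lists for T and NK, B, erythroid and epithelial cells, 0 genes were called between the sublines by fold or by limma. The cells were THP-1 sublines, so a marker's list name is not read as the presence of that cell type. In a bulk sample, fewer cells of a type and less RNA per cell cannot be told apart, and the part of these markers in the lysosomal differences was not tested.

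With NTHi, the lysosomal genes stayed close to their level without it. The median log2 ratio of NTHi[+] over NTHi[-] was 0.12 in Siglec-14/THP-1, where all genes reaching the floor had 0.08, and -0.11 in Siglec-5/THP-1, where all genes had -0.11. By fold, 0 of 42 lysosomal genes passed 1.5-fold upward with NTHi in both sublines, beside 1.6% of 12289 genes and 0.866% of the brighter ones. Likewise 0 were lower, beside 1.4% and 0.127%. The limma fit called 0 lysosomal genes higher, beside 0.99% of all genes, and 0 lower, beside 0.294%. At an unadjusted p under 0.05 it gave 2 higher, CTSH and ATP6AP1, and 1 lower, ATP6V1H, beside 3.42% and 3.3% of all genes. Read on the brightest probe set, 1 of the 40 genes at the floor on every array was past 1.5-fold in either subline. This was ATP6V1H, the regulatory subunit of the V-ATPase, in Siglec-5/THP-1, at 379 without and 247 with NTHi. In Siglec-14/THP-1 it was 337 without and 297 with NTHi. Some dimmer probe sets were past 1.5-fold too. A CTSS (cathepsin S) probe set, of the _x_at type, went from 259 to 131 in Siglec-5/THP-1. There, 0 of 3 CTSS probe sets at the floor on every array were higher with NTHi. A LAMP1 probe set went from 316 to 208 in Siglec-14/THP-1 and from 243 to 161 in Siglec-5/THP-1. Of 4 LAMP1 probe sets, 3 were higher with NTHi in Siglec-14/THP-1 and 1 in Siglec-5/THP-1.

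Some genes ran the same way in both sublines at less than 1.5-fold. CTSH had log2 ratios of 0.36 in Siglec-14/THP-1 and 0.35 in Siglec-5/THP-1, with a limma adjusted p of 0.65. ATP6AP1, an accessory subunit of the V-ATPase, had 0.38 and 0.26, and ARSA had -0.56 and -0.46. MANBA (beta-mannosidase) had -0.39 and -0.25. Over the 40 genes at the floor on every array, 13 were above 0 in both sublines, 8 were below 0 in both, 15 were above 0 in Siglec-14/THP-1 and below 0 in Siglec-5/THP-1, and 4 were the reverse (CTSZ, GAA, NAGLU and MCOLN1). Of all genes reaching the floor in the pair, 64.1% were above 0 in Siglec-14/THP-1 and 30.1% in Siglec-5/THP-1. Their shares in the 4 classes are not given. The 2 medians of all genes have the same opposite signs as the class of 15, and under sum scaling of the arrays the list's medians were -0.01 and -0.05.

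TFEB itself had a log2 ratio of 0.40 with NTHi in Siglec-14/THP-1 and 0.07 in Siglec-5/THP-1. PSAP had 0.40 and 0.04. CTSL had 0.28 and -0.25, and NPC1, the cholesterol transporter of the lysosomal membrane, had 0.36 and -0.12, at signals of 291 and 373 in Siglec-14/THP-1 and 327 and 301 in Siglec-5/THP-1. GAA (acid alpha-glucosidase, which degrades glycogen) ran the other way, from 88.3 to 67.7 in Siglec-14/THP-1 and from 73.5 to 95.4 in Siglec-5/THP-1. These differences between the responses of the sublines rest on 1 array per condition and have no test.

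**Figure D5:**
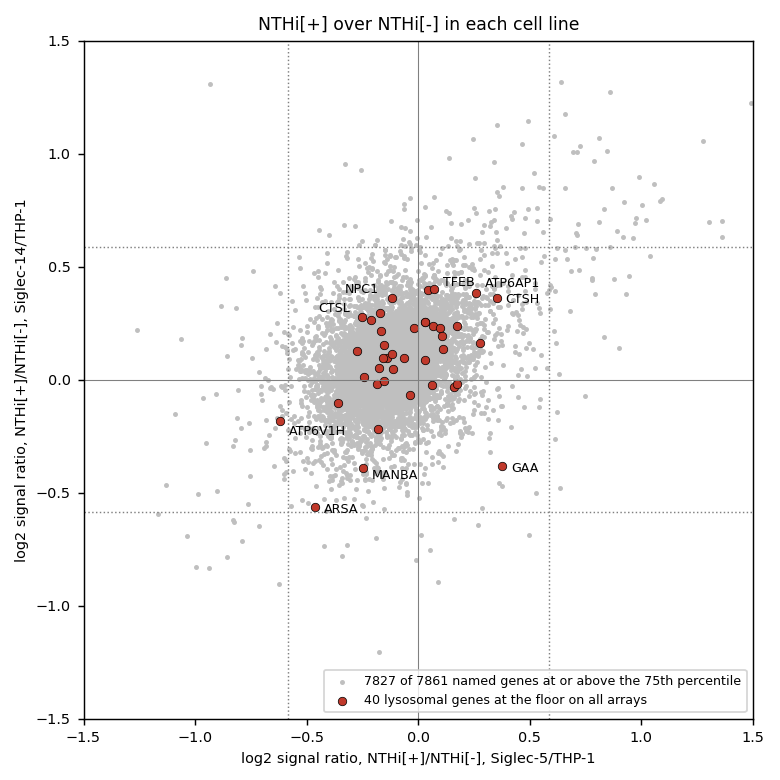
Log2 signal ratio of NTHi[+] over NTHi[-] in Siglec-5/THP-1 (x) and in Siglec-14/THP-1 (y), for the 40 lysosomal genes at the floor on all arrays (red) and for 7827 of 7861 brighter genes that fall within the axes (grey). Dotted lines mark 1.5-fold, which no lysosomal gene passes in both sublines on its brightest probe set, and ATP6V1H lies past it in Siglec-5/THP-1. GAA is 1 of 4 genes below 0 in Siglec-14/THP-1 and above 0 in Siglec-5/THP-1, and 15 genes are the reverse.

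In the second list, 0 of 68 genes were higher with NTHi in both sublines by fold (1.6% of all genes) or by limma (0.99%). By fold 1 was lower, beside 1.4% of all genes, a share that is no result about the list. This was CST6, a cystatin that inhibits cysteine proteases, at 21.6 and 26.7 without NTHi and at 10.5 and 10.2, below the floor, with NTHi.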

How the data were processed

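The authors used GCOS, Affymetrix's operating software (its version is not stated), to quantify the arrays, and deposited linear signal intensity per probe set. Their methods describe standardization on the cumulative signal of all probes, but the sums differed between arrays, so the values were used as deposited. Of 54675 probe sets, 41097 were annotated to 1 gene in the platform's annotation, 1801 to several and 11777 to none. The 62 control probe sets were left out of the tests.

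Log2 ratios were taken per pair of arrays, with no test for a pair. The fold rule needed at least 1.5-fold in the same direction in both pairs, with the higher signal at the floor. The shared fit used limma 3.58.1 (R 4.3.3; eBayes with trend, 1 residual degree of freedom), the infinite prior degrees of freedom making the variance that of the trend, and Benjamini-Hochberg adjustment over 31981 probe sets, under 0.05. The number of arrays limits the precision. Alternatives were scaling, floor, pseudocount, fold, choice of probe set, trend and terms.

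All 4 signals are given for genes past 1.5-fold, those called for NTHi, the 5 highest and lowest mean line ratios, the brightest of each role, TFEB, and the 3 with the most different responses. CTSB, LGMN, CTSK, ATP6V1H, and LYST, MITF and the genes called by limma alone in the second list were added after their values were seen. Members and lists were chosen with earlier results of these data known. Python 3.11.15, numpy 2.4.6, pandas 2.3.3 and matplotlib 3.10.9 did the rest.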

Additional observations from a re-analysis of the deposited data

Results flagged for a closer look

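In 3 genes, the signal was higher with NTHi in one subline and lower in the other, past the lower of the fold thresholds tried in each, with signals at the floor on every array. The log2 response in Siglec-14/THP-1 minus that in Siglec-5/THP-1 was -0.76 for GAA, 1.19 for LAMP3 and -1.76 for SLC11A1. The SLC11A1 signal went from 92.1 to 50.8 in Siglec-14/THP-1 and from 28.8 to 54.0 in Siglec-5/THP-1. The LAMP3 signal went from 84.9 to 150 and from 37.6 to 29.0. The medians of all genes, 0.08 and -0.11, have the same signs as LAMP3 and the reverse of GAA and SLC11A1. SLC11A1 was read on the brightest of 6 probe sets, of a type (_x_at) that may share probes with other transcripts. The share of all genes under the same rule is not given, so the count is no result about these lists. With 1 array per condition, the difference between the responses was not tested.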

How the results depend on the processing

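No paired analysis was possible beyond the subline and NTHi terms already in the fit, because each condition had 1 array. Of 120 recomputed summary values, 104 stayed within the limits set for equal values. The 3 genes higher in Siglec-14/THP-1 by fold became 7 at a lower fold threshold (log2 of 0.32) or on the second brightest probe set (CTSB, CTSH, CTSL, IDS, SMPD1, PSAP and TFEB) and 5 with the median over probe sets. It was 2 at a fold of 2 and 2 with a pseudocount of 16, where CTSL no longer passed. By fold with NTHi, 0 higher became 1 at that lower fold (CTSH) and 1 on the second brightest probe set (CTSZ), and 0 lower became 1 at it (ARSA). These fold counts under other settings are given without the share of all genes, so they are no result about the list. The limma count of 6 higher in Siglec-14/THP-1 became 0 without the intensity trend (4 at an unadjusted p under 0.05), 15 with quantile normalization, 16 with sum scaling and 16 with trimmed mean scaling, where 10.96%, 12.7% and 13.3% of all genes were called higher. With NTHi in limma, 0 higher became 2 with median scaling and 2 with quantile normalization, beside 2.12% and 1.59% of all genes. It became 2 with sum scaling and 5 with trimmed mean scaling, beside 2.23% and 3.49%. The 0 lower became 2 with sum scaling (CTSS and ATP6V1H), beside 2.33%. With trimmed mean scaling it became 1 (ATP6V1H), beside 1.62%. Of all line calls in the fit, 55.7% were higher in Siglec-14/THP-1 as reported and 31.9% with median scaling. The cause was not tested. No called value reversed its direction, but the list's median ratio with NTHi in Siglec-14/THP-1 was 0.12 as reported and -0.01 with sum scaling. Of 324 values of single genes, 32 moved, all with another choice of probe set. Dim genes such as LGMN and IDUA are limited by signal over background. With 1 array per condition, no replicate could be left out.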
